A study of Mus musculus with 6 samples.

Results

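The 57 genes described here are the cyclins, the cyclin-dependent kinases (CDKs), their inhibitors and the other regulators that drive or restrain the cell division cycle, taken by gene symbol from a table of 40481 genes. The rule uses the symbol and no measured value, although these genes and the lists below were chosen with earlier results of these data known. Each of the 57 genes was found once in the table, and all passed the filter on low counts, as did 14778 genes in all. The table holds poly(A)-selected RNA sequencing counts from bone marrow-derived macrophages (BMDMs) of wild-type mice (3 libraries) and of *Scd2-m/-m* mice (3 libraries). The *Scd2-m/-m* mice carry floxed alleles of *Scd2*, a stearoyl-CoA desaturase that makes monounsaturated fatty acids, deleted in myelomonocytic cells by a Cre recombinase under the lysozyme M promoter. Male and female mice of 2 to 5 months were used in the study, and the sex and age behind each library, and the floxed and Cre status of the wild-type mice, were not given in the sources used here. Marrow cells of both groups were differentiated for 5 to 6 days in medium with 10% supernatant of CMG cells, a source of macrophage colony-stimulating factor (M-CSF), kept afterwards at 2%, and no stimulus is named for these libraries.

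In a dividing cell, D-type cyclins bind CDK4 and CDK6 in G1 and begin to phosphorylate the pocket proteins (RB1, p107, p130), which releases E2F factors that switch on the genes of DNA synthesis, cyclins E and A among them. Later in the cycle the MuvB complex with B-MYB and then FOXM1 turns on the genes of G2 and mitosis, many of which carry a CHR element (cell cycle genes homology region) and CCAAT boxes near their start. CIP/KIP and INK4 proteins hold the CDKs in check, and the anaphase-promoting complex (APC/C) ends mitosis by marking cyclins and securin for destruction. Macrophages grown from marrow divide in response to M-CSF and leave the cycle as they mature.

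The libraries held 46285176 to 57629638 counts on genes, and levels are given as CPM (counts scaled to a common library size with TMM factors), with libraries in the order of replicates 1, 2 and 3 and means as mean ± SD (n = 3). The edgeR quasi-likelihood test on all 14778 genes, adjusted by Benjamini and Hochberg (FDR), called a gene changed at an FDR below 0.05, and 17.5% of genes were called. Nothing in the labels says that libraries came from separate mice, so the FDR measures the spread between these libraries, which may be technical. The targeted gene *Scd2* was counted at 66.9, 77.8 and 62.7 CPM in wild-type libraries and 59.5, 37.96 and 39.8 CPM in the *Scd2-m/-m* ones, which did not overlap, a log2 fold change of −0.59 (standard error, SE, 0.19, FDR = 0.1002) that did not pass the threshold. Of the 6 fits that each left out 1 library, only 1 passed the threshold for *Scd2*. It was the fit without *Scd2-m/-m* replicate 1, the library nearest to wild type (FDR = 8.87e-05). The floxed exons were not named in the sources used here, so counts over the whole gene may not measure the deletion. Of the 8 macrophage markers 5 were lower and 1 (*Cd68*) was higher, and their summed level was 36981 to 38189 CPM in wild-type libraries and 21196 to 21756 CPM in the *Scd2-m/-m* ones. Most of the difference in this sum came from *Lyz2*, the locus of the lysozyme M-Cre allele. It was at 22751 CPM in wild type, against 9029 CPM in *Scd2-m/-m* macrophages. The log2 fold changes of the other macrophage markers ran from −0.49 (*Adgre1*) to 0.22 (*Cd68*), and *Itgam* and *Fcgr1* were not called.

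Of the 57 regulators, 31 were called higher and 1 was called lower in *Scd2-m/-m* macrophages, beside 9.65% of all genes tested called higher and 7.84% called lower. Their median log2 fold change was 0.40, against 0.0039 over all genes tested, and 16 of the 57 were called with a log2 fold change above 1, beside 2.31% of all genes. For 6 (*Ccna2*, *Ccnb1*, *Ccnb2*, *Cdc25c*, *Cdkn3* and *Ube2c*) it was above 2, beside 0.629% of all genes. The groups did not overlap for 34 regulators with *Scd2-m/-m* above wild type and for 4 with it below, beside 17.9% and 17.0% of the genes tested. The share called was highest among the regulators of late cycle. Of 18 whose transcript peaks in G2 and mitosis, 15 were called higher and none lower, with 1.46 as the median log2 fold change. Their summed level was 135 to 136 CPM in wild-type libraries and 248 to 274 CPM in the *Scd2-m/-m* ones. Of 10 that peak at the G1/S transition, 7 were called higher and none lower (median 0.83, summed level 96.6 to 102 and 114 to 129 CPM). The other 29, which were placed in neither of these groups, had 9 called higher, 1 called lower and a median of 0.065. In these bulk libraries a larger share of cells in cycle and more transcript per cycling cell cannot be told apart.

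**Figure D1:**
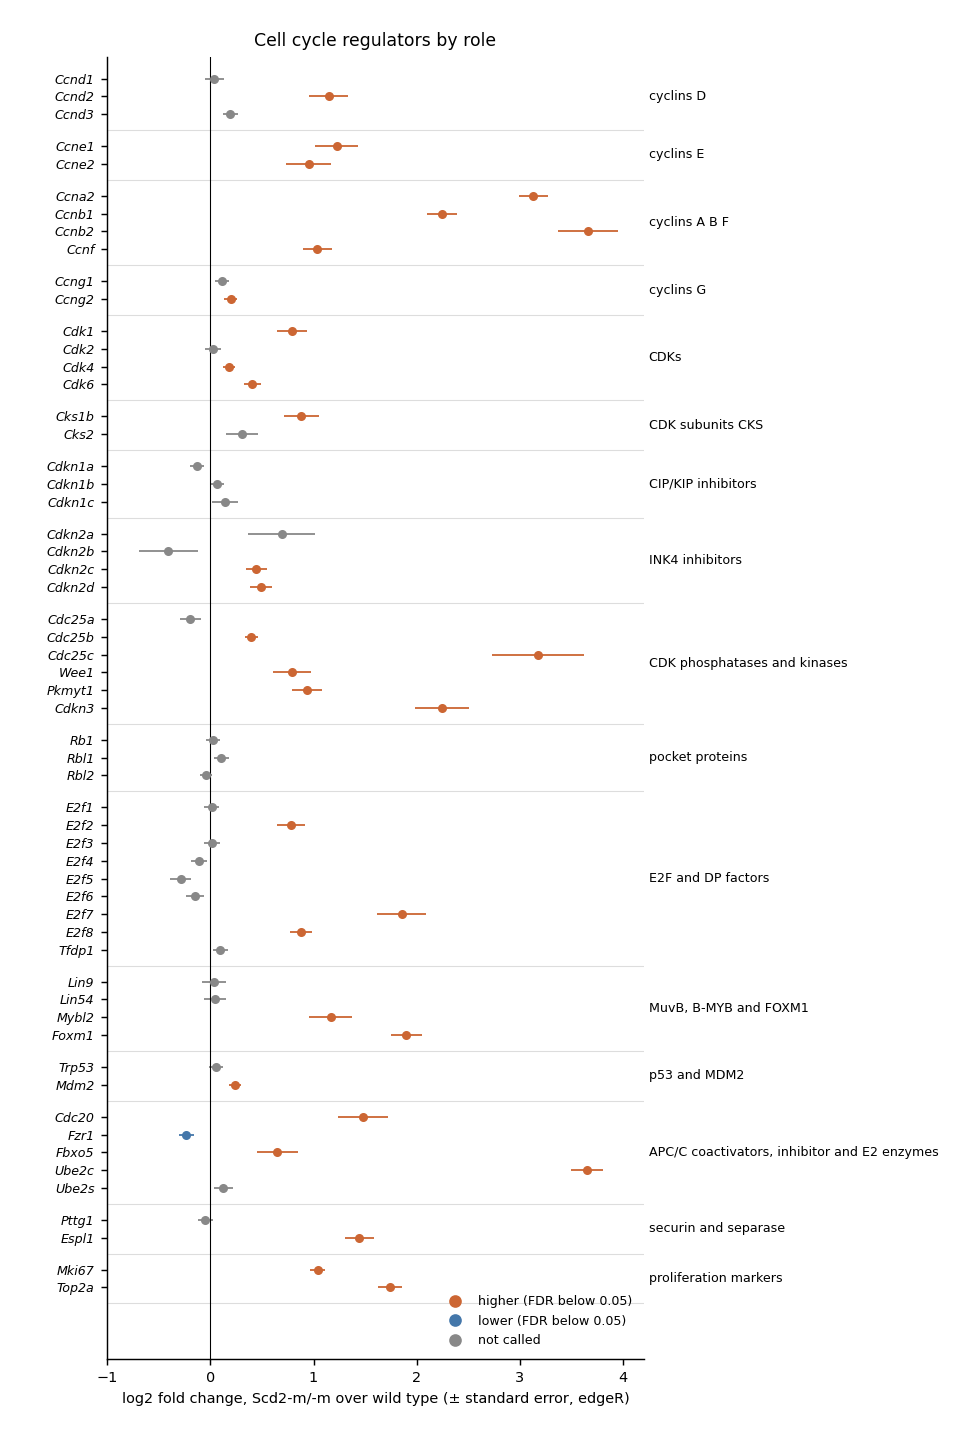
Log2 fold change of *Scd2-m/-m* over wild type (x axis) for each of the 57 regulators (y axis), grouped by role, with points at the edgeR estimate and bars of 1 standard error, coloured by call. *Ccnb2*, *Ube2c*, *Cdc25c* and *Ccna2* lie above 3, while the CIP/KIP inhibitors, the pocket proteins and *E2f1*, *E2f3* and *E2f4* lie near 0.

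Cyclins A, B and F all rose, and cyclin B2 had the largest log2 fold change of the 57. *Ccnb2* (chr9:70407692-70421547, GRCm38) encodes cyclin B2, a partner of CDK1 at entry into mitosis. It was counted at 1.07, 0.737 and 0.728 CPM in wild-type libraries and 14.5, 10.4 and 7.31 CPM in the *Scd2-m/-m* ones, a log2 fold change of 3.66 (SE 0.29, FDR = 4.37e-05) or 12.7-fold. Every *Scd2-m/-m* library lay far above every wild-type library, with replicate 1 highest and replicate 3 lowest. *Ccna2* (chr3:36564865-36572150), cyclin A2 of S phase and G2, had 1.09, 1.08 and 1.26 CPM and 11.02, 9.81 and 9.36 CPM, a difference of 3.13 (SE 0.14, FDR = 8.43e-09) or 8.77-fold. *Ccnb1*, the main mitotic cyclin, stood at 1.61, 1.605 and 1.67 CPM and 8.94, 7.24 and 7.09 CPM, a log2 fold change of 2.25 (SE 0.14, FDR = 2.91e-07). Both showed tight wild-type values and no overlap. *Ccnf*, the F-box cyclin that directs an SCF ubiquitin ligase and binds no CDK, had 2.58, 2.97 and 2.72 CPM and 5.12, 6.29 and 5.57 CPM and rose by 1.04 (SE 0.14, FDR = 1.64e-04) on the log2 scale. Its *Scd2-m/-m* values were about level with one another and all above wild type.

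*Cdk1*, the kinase that these B cyclins activate, had a smaller log2 fold change than they did, going from 3.75, 4.21 and 5.55 CPM to 8.099, 7.12 and 8.14 CPM (0.79, SE 0.14, FDR = 0.00176). The groups did not overlap, though wild-type replicate 3 stood above the other two. Of the CKS proteins that dock CDKs to their substrates, *Cks1b* rose (3.02 ± 0.138 to 5.57 ± 1.35 CPM, log2 fold change 0.88, SE 0.17, FDR = 0.00265), with *Scd2-m/-m* replicate 1 the highest. *Cks2* had a log2 fold change of 0.31 (SE 0.16, FDR = 0.214) and was not called, although its 3 *Scd2-m/-m* libraries lay above the 3 wild-type ones.

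CDK1 is held inactive by the kinases WEE1 and MYT1 (*Pkmyt1*) and released by CDC25 phosphatases. *Cdc25c* was the scarcest regulator of all in wild type, with 6, 2 and 5 counts against 35, 51 and 48 counts in *Scd2-m/-m* libraries, or 0.121, 0.0434 and 0.0984 CPM and 0.627, 1.01 and 0.826 CPM. Its log2 fold change was 3.18 (SE 0.45, FDR = 2.46e-04), and the small counts in wild type make its size imprecise. *Cdc25b*, already abundant in wild type, rose by 0.40 (SE 0.062, FDR = 5.50e-04), and *Cdc25a*, which acts at G1/S, was not called (9.59 ± 0.558 and 8.38 ± 0.648 CPM, log2 fold change −0.20, SE 0.10, FDR = 0.214), its *Scd2-m/-m* libraries all lying below wild type. The inhibitory kinases went the same way as the cyclins: *Wee1* had a log2 fold change of 0.79 (SE 0.18, FDR = 0.00836) and *Pkmyt1* one of 0.94 (SE 0.15, FDR = 6.05e-04). *Cdkn3*, a phosphatase that removes the activating phosphate from CDKs, was counted at 0.363, 0.304 and 0.413 CPM and 1.54, 1.95 and 1.67 CPM, a rise of 2.24 (SE 0.26, FDR = 5.16e-05) without overlap. Thus 5 of these 6 enzymes were called higher, beside 9.65% of all genes tested, activators and inhibitors of CDK1 alike.

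Among the regulators of protein destruction in mitosis, *Ube2c* (chr2:164769898-164778822) had the largest log2 fold change. It encodes the ubiquitin-conjugating enzyme that starts chains on APC/C substrates, and was counted at 1.19, 0.846 and 0.944 CPM in wild-type libraries and 12.9, 13.8 and 10.9 CPM in the *Scd2-m/-m* ones, a log2 fold change of 3.65 (SE 0.15, FDR = 6.84e-09) or 12.6-fold. All 3 *Scd2-m/-m* libraries were close to each other and above wild type. *Ube2s*, the enzyme that lengthens those chains, had 22.1 ± 2.56 and 24.2 ± 1.75 CPM, overlapped between groups and was not called (log2 fold change 0.13, SE 0.089, FDR = 0.372). *Cdc20*, the APC/C coactivator of mitosis, stood at 2.24, 1.73 and 2.72 CPM and 8.06, 6.45 and 4.18 CPM, a log2 fold change of 1.48 (SE 0.24, FDR = 0.00186). Its *Scd2-m/-m* values fell apart from one another more than most, with replicate 1 highest, yet all lay above wild type. *Fzr1* (CDH1), the coactivator that keeps the APC/C active in G1, was the 1 regulator called lower, with 69.2, 67.5 and 63.8 CPM and 61.4, 58.4 and 50.7 CPM (log2 fold change −0.23, SE 0.074, FDR = 0.0435). The groups did not overlap, but the call was lost without wild-type replicate 1 or 2 or *Scd2-m/-m* replicate 2 or 3 (FDR 0.107 to 0.143). *Fbxo5* (EMI1), which blocks the APC/C from S phase on, rose by 0.65 (SE 0.20, FDR = 0.0387). This call too was lost without wild-type replicate 2 or 3 or *Scd2-m/-m* replicate 2 or 3 (FDR 0.0791 to 0.163).

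Separase rose, and its inhibitor securin was not called. *Espl1*, the separase that cuts cohesin at anaphase, was counted at 3.14, 3.06 and 3.896 CPM and 10.6, 8.36 and 8.53 CPM, a log2 fold change of 1.44 (SE 0.14, FDR = 9.71e-06). *Pttg1*, securin, had 21.05 ± 1.24 and 20.3 ± 0.769 CPM and a log2 fold change of −0.050 (SE 0.075, FDR = 0.704), with overlapping groups. The proliferation markers both rose. *Mki67* (Ki-67, which coats mitotic chromosomes) had 24.6, 30.1 and 28.7 CPM and 57.4, 55.2 and 58.8 CPM, a difference of 1.04 (SE 0.076, FDR = 1.04e-06), and *Top2a* (topoisomerase II alpha, which untangles chromosomes) had 6.89, 6.92 and 9.78 CPM and 25.7, 26.6 and 26.7 CPM, a difference of 1.74 (SE 0.12, FDR = 7.91e-07). For both, the *Scd2-m/-m* libraries agreed closely and none came near wild type.

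**Figure D2:**
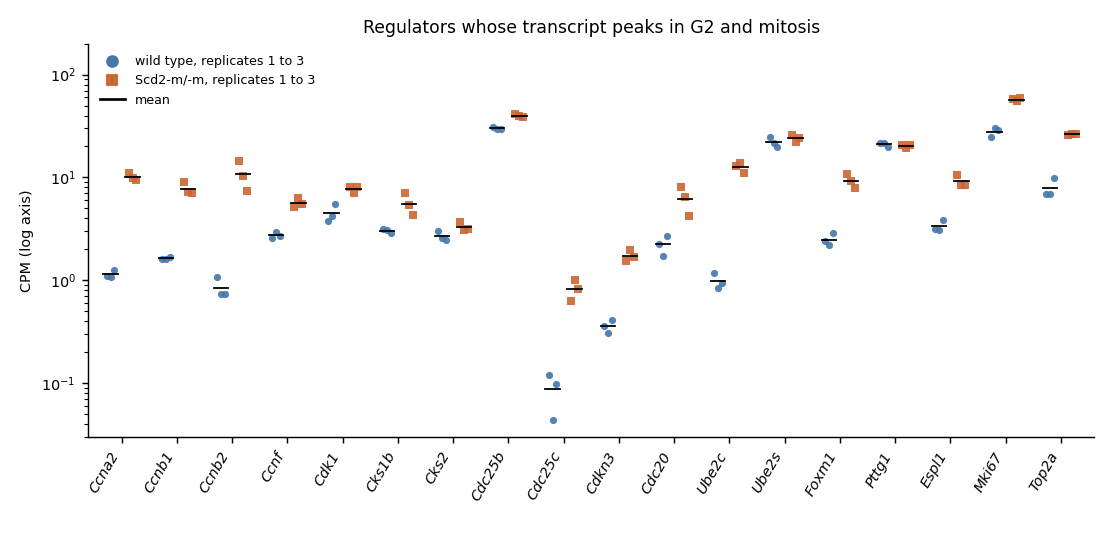
Level in each library (y axis, CPM, log scale) of the 18 regulators whose transcript peaks in G2 and mitosis (x axis), with wild-type libraries as circles, *Scd2-m/-m* libraries as squares and the mean of each group as a line. For 16 of the 18 genes every square lies above every circle, beside 17.9% of all genes tested, and *Ube2s* and *Pttg1* overlap.

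The *Scd2-m/-m* libraries did not all stand at the same height for these genes. Replicate 1 was the highest of the 3 for 10 of the 18 G2/M regulators and replicate 3 the lowest for 8. For the 10 G1/S regulators the highest library was replicate 1 for 2 genes, replicate 2 for 4 and replicate 3 for 4. Over all 57 regulators replicate 1 was the highest for 21 and replicate 3 the lowest for 20. Whether these orders differ was not tested. With any 1 of the 6 libraries left out, the median log2 fold change of the G2/M regulators lay between 1.28 and 1.60.

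The promoters of several of these genes are printed because the letters known from CHR elements and CCAAT boxes occur in most of those that rose. The windows come from RefSeq on GRCm38.p6, reaching from 250 bases before to 50 after the annotated start, and were found for 44 of the 57 regulators. They were searched on both strands for TTTGAA (the CHR core), for CCAAT, and for the E2F letters TTTCCCGC, TTTGGCGC, TTTCGCGC and TTTGCCGC. Each stretch below begins 150 bases before the RefSeq start and ends where at most 30 bases of transcript follow, 5′ to 3′ on the gene's strand, with the searched letters on either strand in capitals.
Ccnb2 (chr9:70421525-70421704, minus strand): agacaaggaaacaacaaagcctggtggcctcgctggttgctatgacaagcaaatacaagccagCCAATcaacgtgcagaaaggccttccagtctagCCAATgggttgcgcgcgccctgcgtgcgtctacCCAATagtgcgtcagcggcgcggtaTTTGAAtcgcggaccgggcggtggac
Ube2c (chr2:164769779-164769927, plus strand): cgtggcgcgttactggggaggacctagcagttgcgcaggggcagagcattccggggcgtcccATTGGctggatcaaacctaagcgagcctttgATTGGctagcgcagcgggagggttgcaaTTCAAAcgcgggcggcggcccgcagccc
Cdc20 (chr4:118437323-118437493, minus strand): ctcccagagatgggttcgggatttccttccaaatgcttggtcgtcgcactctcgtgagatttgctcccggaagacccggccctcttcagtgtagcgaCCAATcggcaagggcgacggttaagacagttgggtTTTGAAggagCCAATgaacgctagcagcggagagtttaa
Cdk1 (chr10:69352909-69353062, minus strand): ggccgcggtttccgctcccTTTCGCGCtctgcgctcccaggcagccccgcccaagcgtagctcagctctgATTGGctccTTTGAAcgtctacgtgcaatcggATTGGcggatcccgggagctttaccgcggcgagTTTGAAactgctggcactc
Ccnb1 (chr13:100786541-100786636, minus strand): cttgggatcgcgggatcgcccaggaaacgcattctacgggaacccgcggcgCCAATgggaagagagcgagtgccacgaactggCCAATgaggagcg
Cks2 (chr13:51645082-51645261, plus strand): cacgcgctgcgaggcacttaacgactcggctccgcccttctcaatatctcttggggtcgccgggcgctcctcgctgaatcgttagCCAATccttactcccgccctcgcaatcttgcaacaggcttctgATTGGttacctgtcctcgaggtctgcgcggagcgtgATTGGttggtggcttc

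In *Ccnb2* 3 CCAAT boxes precede a TTTGAA that begins at base 5 after the start, and in *Ube2c* a pair of reversed CCAAT boxes (ATTGG) precedes TTCAAA, the CHR on the other strand, at base −29. *Cdk1* has ATTGG boxes at −80 and −48 in the stretch shown, TTTGAA at −71 and −15, and E2F letters at −131. *Ccnb1* holds CCAAT boxes at −99 and −67 but no TTTGAA in its window, although its transcript rose, and *Cks2*, which was not called, holds CCAAT letters and no TTTGAA. Over all G2/M regulators with a window, 10 of 15 held the CHR letters (10 of the 12 called higher, and 0 of the 3 not called, *Cks2*, *Pttg1* and *Ube2s*), beside 20.2% of all 27025 promoters and 14.5% of the promoters of tested genes. At least 2 CCAAT boxes were present in 11 of the 15, beside 13.3% and 16.7%. The E2F letters were in 1 of 15 G2/M regulators and in 4 of 9 G1/S regulators (*Cdc25a*, *Rbl1*, *E2f2* and *E2f7*), beside 2.61% of all promoters and 4.69% of those of tested genes. CHR letters were also in 3 of 9 G1/S regulators (3 of the 6 called higher and 0 of the 3 not called). In the others they were in 4 of 20, with 0 of the 6 called higher and 4 of the 13 not called. Over all regulators called higher, 13 of the 24 with a window held them. The RefSeq start of *Pttg1* lies downstream of its GENCODE gene start, so that its window may miss the promoter. That of *Ccnb1* lies 84 bases downstream of its GENCODE gene start, so that its window reaches less far before the latter. Such matches are letters only, and no binding was measured.

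**Figure D3:**
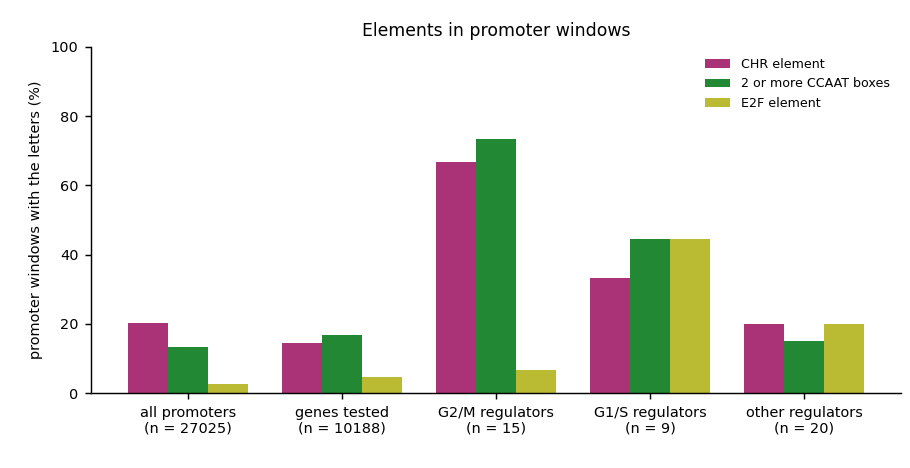
Share of promoter windows (y axis, %) that hold the CHR letters, at least 2 CCAAT boxes or the E2F letters, for all RefSeq promoters, the tested genes and the 3 groups of regulators (x axis, with the number of windows). The G2/M regulators reach 66.7% for CHR letters and 73.3% for at least 2 CCAAT boxes, and the G1/S regulators 44.4% for E2F letters.

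Entry into the cycle runs through the D cyclins, and of these *Ccnd2* alone was called. *Ccnd2* (chr6:127125162-127152193) was counted at 2.46, 1.39 and 2.36 CPM in wild-type libraries and 4.55, 4.44 and 4.800 CPM in the *Scd2-m/-m* ones, a log2 fold change of 1.15 (SE 0.19, FDR = 8.88e-04). Its *Scd2-m/-m* values lay together, all above wild type, whose replicate 2 was low. *Ccnd1* had 25.6, 22.9 and 22.3 CPM and 24.05, 21.1 and 27.5 CPM, which overlapped (log2 fold change 0.039, SE 0.094, FDR = 0.825). *Ccnd3* had 37.01, 39.9 and 44.5 CPM and 44.3, 48.2 and 46.2 CPM (log2 fold change 0.19, SE 0.074, FDR = 0.0937), with wild-type replicate 3 just above the lowest *Scd2-m/-m* library, and was called only where wild-type replicate 3 was left out (FDR = 0.0280) among the fits without 1 library. Per kilobase of exon, *Ccnd2* made up 2.23% ± 0.593 of D-cyclin transcript in wild-type macrophages and 4.49% ± 0.0802 in those of *Scd2-m/-m* mice (exact two-sided permutation p = 0.1, the smallest that 3 against 3 libraries allow, adjusted p = 0.3 over 3 shares). The share of *Ccnd1* was 50.9% ± 3.91 and 47.0% ± 3.79 (exact permutation p = 0.4), and that of *Ccnd3* 46.9% ± 4.03 and 48.5% ± 3.74 (exact permutation p = 0.8). These shares depend on the exon lengths used, which join all annotated exons of a gene. Without division by length they were 35.7% and 32.2% for *Ccnd1*, 61.2% and 61.7% for *Ccnd3*, and 3.12% and 6.13% for *Ccnd2*. *Ccnd1* and *Ccnd3* thus supplied nearly all D-cyclin transcript in both groups.

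The E cyclins, which bind CDK2 at the start of S phase, both rose. *Ccne1* was counted at 0.947, 0.932 and 1.28 CPM and 2.204, 2.84 and 2.37 CPM, a log2 fold change of 1.23 (SE 0.21, FDR = 0.00108), with no overlap. *Ccne2* rose by 0.95 (SE 0.22, FDR = 0.00907), and its call was lost without *Scd2-m/-m* replicate 2, the highest library (FDR = 0.0682).

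The kinases of G1 had smaller log2 fold changes. *Cdk6* stood at 38.8, 32.9 and 31.7 CPM and 48.8, 42.6 and 45.8 CPM, a log2 fold change of 0.41 (SE 0.082, FDR = 0.00347), and *Cdk4* at 68.1, 65.3 and 65.9 CPM and 75.99, 75.6 and 74.5 CPM, a log2 fold change of 0.18 (SE 0.056, FDR = 0.0389). Neither overlapped between groups, but the call of *Cdk4* was lost whichever of the 6 libraries was left out (FDR 0.0516 to 0.165). *Cdk2*, the partner of cyclins E and A, had 25.5, 27.3 and 23.8 CPM and 27.5, 24.3 and 26.1 CPM, overlapping, with a log2 fold change of 0.024 (SE 0.075, FDR = 0.868). *Cdk1* was therefore the CDK with the largest log2 fold change of the 4.

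None of the CIP/KIP inhibitors, which bind cyclin-CDK complexes directly, was called. *Cdkn1a* (p21, chr17:29090976-29100727), which p53 switches on, was counted at 187, 183 and 193 CPM and 186, 176 and 152 CPM, a log2 fold change of −0.13 (SE 0.071, FDR = 0.244). Only *Scd2-m/-m* replicate 3 stood well below the others. *Cdkn1b* (p27) had 77.4, 71.7 and 74.8 CPM and 75.3, 76.1 and 82.8 CPM, a log2 fold change of 0.065 (SE 0.062, FDR = 0.524), and *Cdkn1c* (p57) had 5.92, 5.72 and 5.96 CPM and 7.096, 5.43 and 6.85 CPM, a log2 fold change of 0.14 (SE 0.12, FDR = 0.493). Both overlapped between groups.

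Of the INK4 inhibitors, which bind CDK4 and CDK6 alone, the abundant pair rose. *Cdkn2c* (p18) had 10.9, 12.2 and 14.3 CPM and 16.9, 17.9 and 16.2 CPM, a log2 fold change of 0.44 (SE 0.10, FDR = 0.00714), and *Cdkn2d* (p19) had 8.54, 8.24 and 10.8 CPM and 12.9, 13.7 and 12.2 CPM, a log2 fold change of 0.49 (SE 0.11, FDR = 0.00723). Neither overlapped, and the call of *Cdkn2d* was lost without wild-type replicate 2 (FDR = 0.0504). *Cdkn2a*, whose counts cover p16 and p19ARF together, was scarce, with 0.423, 0.369 and 0.453 CPM and 0.555, 0.776 and 0.688 CPM (log2 fold change 0.69, SE 0.32, FDR = 0.166), and was not called although its groups did not overlap. *Cdkn2b* (p15) was also scarce, with 1.47, 1.24 and 0.748 CPM and 0.824, 0.756 and 1.02 CPM, which overlapped (log2 fold change −0.41, SE 0.28, FDR = 0.3702). Inhibitors of the CDKs were therefore among the regulators that rose, and none was called lower.

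**Figure D4:**
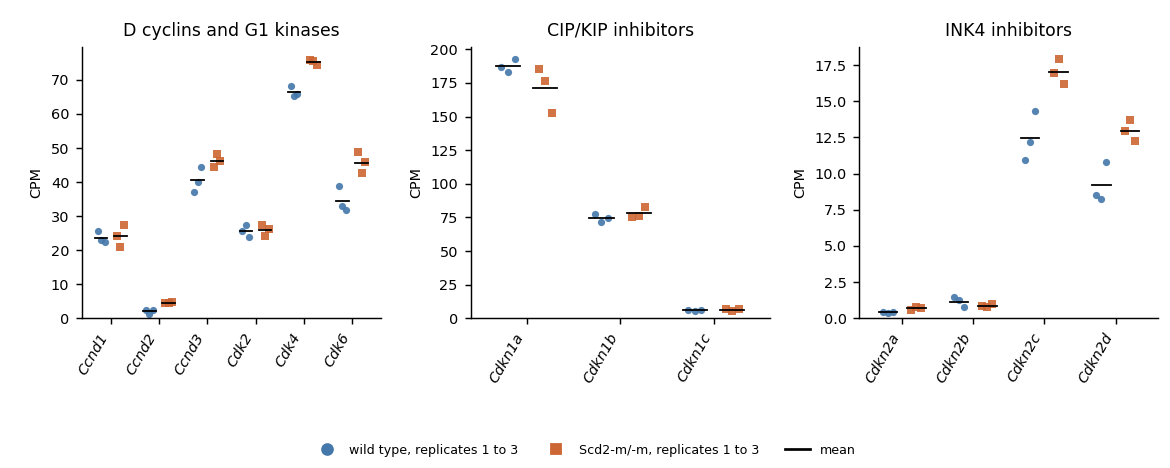
Level in each library (y axes, CPM, from 0) of the D cyclins and G1 kinases, the CIP/KIP inhibitors and the INK4 inhibitors (x axes), with wild-type libraries as circles, *Scd2-m/-m* libraries as squares and group means as lines. *Ccnd2*, *Cdk4*, *Cdk6*, *Cdkn2a*, *Cdkn2c* and *Cdkn2d* do not overlap between groups, and the CIP/KIP inhibitors do.

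The pocket proteins, the targets of these kinases, were not called. *Rb1* had 56.05, 60.5 and 59.4 CPM and 54.6, 60.5 and 63.9 CPM (log2 fold change 0.026, SE 0.069, FDR = 0.844), and *Rbl2* (p130, the pocket protein of resting cells) had 59.9, 63.3 and 62.5 CPM and 59.4, 60.7 and 60.7 CPM (log2 fold change −0.038, SE 0.058, FDR = 0.712), both overlapping. *Rbl1* (p107, itself an E2F target) had 17.1, 17.4 and 16.2 CPM and 17.9, 18.4 and 18.2 CPM (log2 fold change 0.10, SE 0.073, FDR = 0.3700). Its *Scd2-m/-m* libraries all lay above wild type by a small margin.

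Of the 8 E2F factors 3 were called higher and none lower, beside 9.65% and 7.84% of all genes tested. Among the activators, *E2f2* rose, from 20.7, 15.03 and 16.6 CPM to 35.2, 29.1 and 26.05 CPM, a log2 fold change of 0.78 (SE 0.14, FDR = 0.00368). *E2f1* had 43.3, 44.02 and 41.8 CPM and 45.98, 45.3 and 39.04 CPM (log2 fold change 0.013, SE 0.072, FDR = 0.929), and *E2f3* had 16.1, 14.96 and 16.2 CPM and 15.5, 16.7 and 15.5 CPM (log2 fold change 0.013, SE 0.079, FDR = 0.937). The latter pair overlapped between groups, while *E2f2* did not. The atypical repressors, which are made in S phase and shut E2F targets off, both rose: *E2f7* from 0.484, 0.477 and 0.6296 CPM to 1.88, 1.71 and 2.19 CPM, a log2 fold change of 1.86 (SE 0.24, FDR = 1.28e-04), and *E2f8* from 5.06, 5.38 and 5.902 CPM to 10.2, 9.49 and 10.3 CPM, a log2 fold change of 0.88 (SE 0.11, FDR = 7.18e-05). Neither overlapped. The repressors that act with pocket proteins or alone were not called. *E2f4* had 64.6, 59.4 and 55.7 CPM and 60.3, 53.7 and 52.6 CPM (log2 fold change −0.11, SE 0.073, FDR = 0.342), overlapping. *E2f5* had 8.16, 8.35 and 8.42 CPM and 6.63, 6.39 and 7.36 CPM (log2 fold change −0.29, SE 0.10, FDR = 0.0723), and *E2f6* had 14.5, 13.1 and 12.9 CPM and 12.5, 12.04 and 11.96 CPM (log2 fold change −0.15, SE 0.085, FDR = 0.258). For both of these every *Scd2-m/-m* library lay below every wild-type library. *Tfdp1*, the DP partner of the E2Fs, had 35.2 ± 2.98 and 37.6 ± 1.52 CPM (log2 fold change 0.096, SE 0.073, FDR = 0.409), which overlapped.

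The MuvB subunits *Lin9* and *Lin54* were not called (log2 fold changes 0.038 and 0.043), whereas the factors that MuvB recruits rose. *Mybl2* (B-MYB) was counted at 0.806, 1.21 and 1.18 CPM and 2.35, 2.25 and 2.58 CPM, a log2 fold change of 1.17 (SE 0.21, FDR = 0.00163). *Foxm1*, the forkhead factor of G2 genes, was counted at 2.42, 2.19 and 2.85 CPM and 10.9, 9.15 and 7.86 CPM, a log2 fold change of 1.90 (SE 0.15, FDR = 1.94e-06). Neither overlapped between groups, and *Foxm1* was highest in *Scd2-m/-m* replicate 1.

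**Figure D5:**
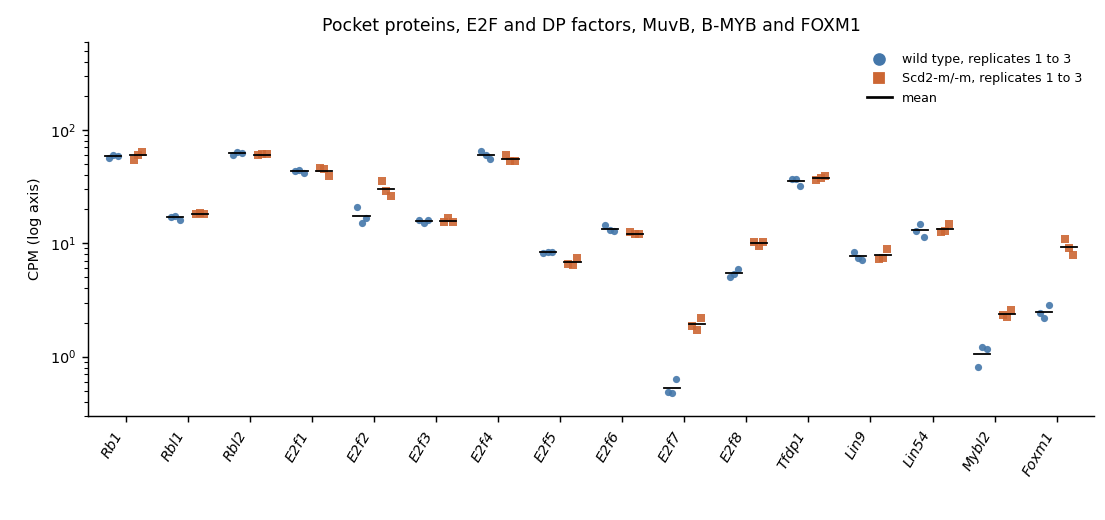
Level in each library (y axis, CPM, log scale) of the pocket proteins, the E2F and DP factors, the MuvB subunits, *Mybl2* and *Foxm1* (x axis), with wild-type libraries as circles, *Scd2-m/-m* libraries as squares and group means as lines. *E2f2*, *E2f7*, *E2f8*, *Mybl2* and *Foxm1* stand clear of wild type, and the abundant *Rb1*, *Rbl2* and *E2f4* overlap.

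*Trp53*, the p53 factor that arrests the cycle after damage, had 101 ± 7.67 and 105 ± 4.41 CPM and overlapped between groups (log2 fold change 0.052, SE 0.066, FDR = 0.647). *Mdm2*, a p53 target and the ligase that destroys p53, rose slightly, from 89.9 ± 3.46 to 106 ± 3.85 CPM (log2 fold change 0.24, SE 0.059, FDR = 0.0117), a call lost without *Scd2-m/-m* replicate 2 (FDR = 0.0901). Of the G cyclins, *Ccng1*, a p53 target, was not called (log2 fold change 0.11, SE 0.070, FDR = 0.301). *Ccng2*, a cyclin of resting cells, was called by the smallest of margins (log2 fold change 0.20, SE 0.065, FDR = 0.0494), and lost the call without any 1 library other than *Scd2-m/-m* replicate 3 (FDR 0.0747 to 0.245).

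Per kilobase of exon, the scale on which levels of different genes can be set side by side, *Cdkn1a* was the most abundant regulator in both groups. In wild type it led with 52.8 ± 1.35 CPM per kb, followed by *Ccng1* (27.1 ± 1.36), *Trp53* (24.99 ± 1.896) and *E2f4* (24.4 ± 1.82), the last 3 of which overlapped between neighbours. *Cdk4* (20.4 ± 0.455) was the most abundant of the 4 CDKs among the 57 regulators, ahead of *Cdk2* (4.11 ± 0.283), *Cdk6* (2.47 ± 0.2703) and *Cdk1* (0.912 ± 0.1897). At the foot of the order stood *Cdkn3* (0.152 ± 0.0231), *E2f7* (0.0588 ± 0.00958) and *Cdc25c* (0.0178 ± 0.00811). In *Scd2-m/-m* macrophages *Cdkn1a* still led with 48.2 ± 4.84 CPM per kb, and *E2f7* (0.214 ± 0.0267) and *Cdc25c* (0.167 ± 0.0394) were still last. Between them *Ccnb2* went from rank 43 to rank 17 of 57 (0.551 ± 0.126 to 7.01 ± 2.35 CPM per kb), and *Ube2c* from rank 49 to rank 24 (0.382 ± 0.0679 to 4.82 ± 0.555). Exon length here is that of all annotated exons of a gene joined, so the order is approximate.

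The rest of the machinery was taken from lists of its parts. The mitotic kinases, which build the spindle and its checkpoint, went the way of the mitotic cyclins: 10 of 12 tested were called higher and none lower, and the median log2 fold change was 1.90. Among them *Melk* rose by 2.27 (SE 0.20, FDR = 3.90e-06), *Nek2* by 2.26 (SE 0.20, FDR = 4.97e-06) and the checkpoint kinase *Bub1b* by 1.27 (SE 0.12, FDR = 1.14e-05), and each was without overlap. In the core of the APC/C, 2 of 14 subunits were called higher, *Anapc5* (0.22) and *Anapc15* (0.37), with a median of 0.057. In the SCF ubiquitin ligases *Ccnf* was the 1 of 9 called. Of 8 other subunits or partners of MuvB and DP, 1 was called lower (*Sin3a*, −0.25) and none higher. Of 17 CDKs and cyclins that act on RNA polymerase II, *Cdk9* was called lower (−0.19) and none higher. Of 17 atypical CDKs and cyclins 4 were called higher, *Cdkl2* (0.81), *Cdk18* (0.39) and *Cdk5* (0.25) with the smallest p, and none lower. These shares stand beside the 9.65% higher and 7.84% lower of all genes tested.

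Targets of p53 moved in both directions, 5 of 22 higher and 4 lower, with a median of 0.077. *Plk2* rose by 0.77 (SE 0.075, FDR = 1.07e-05) and *Gdf15* by 0.78 (SE 0.15, FDR = 0.00335), while *Aen* fell (−0.51, SE 0.092, FDR = 0.00161). Of 16 genes of mitogen input and quiescence 3 were higher and 5 lower. Over all genes tested, 9.65% were called higher and 7.84% lower, with a median of 0.0039. *Csf1r*, the receptor for M-CSF, was counted at 7309.6, 7043 and 6740.3 CPM and 5482, 5415 and 5344 CPM, a log2 fold change of −0.38 (SE 0.067, FDR = 0.00158). *Klf2*, a factor of resting cells, had 59.3, 50.7 and 58.4 CPM and 87.7, 82.1 and 81.7 CPM, a log2 fold change of 0.58 (SE 0.070, FDR = 7.18e-05). Neither overlapped between groups, with *Csf1r* lower and *Klf2* higher.

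Some markers of other marrow cells moved with genotype, beside 9.65% of all genes tested called higher and 7.84% called lower. Of 8 myeloid progenitor markers 6 were tested and 3 called higher, *Flt3* (0.134 to 0.498 CPM), *Mpo* (0.544 to 1.05 CPM) and *Prtn3* (0.1195 to 0.995 CPM), with a summed level of all 8 of 1.89 to 2.28 CPM in wild-type libraries and 3.64 to 4.78 CPM in the *Scd2-m/-m* ones. Of 9 neutrophil markers 7 were tested, with 4 higher, *S100a8* (4.08 to 7.98 CPM), *S100a9* (2.79 to 8.74 CPM), *Ltf* (0.862 to 2.36 CPM) and *Ngp* (2.51 to 8.42 CPM), and *Csf3r* lower (164 to 135 CPM). Their summed level, most of it *Csf3r*, was 183 to 191 and 159 to 191 CPM, with *Ly6g* at 0 in wild type and at most 2 counts in any library. Of 8 B cell markers 4 were tested, and *Cd79a* (0.232 to 0.591 CPM) and *Cd79b* (2.50 to 5.01 CPM) were higher. The summed level of all 8 was 54.2 to 120 and 83.7 to 116 CPM, most of it *Ighm*, which was not called. None of the tested markers of T and NK cells (2), erythroid cells (3), mast cells and basophils (1), dendritic cells (4), megakaryocytes (1) or stromal cells (4) was called, and *Ncr1*, *Rhag* and *Tpsb2* had 0 counts in every library. The mast cell and basophil markers nevertheless summed to 0.217 to 0.453 CPM in wild-type libraries and 0.555 to 1.07 CPM in the *Scd2-m/-m* ones. These sums did not overlap, and rest on 192 counts over all libraries. The part of such cells in the levels of the cycle regulators was not tested.

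Whether the counting kept the strands apart was not given in the sources used here, and 22 of the 57 regulators share exon bases with a gene on the opposite strand, a protein-coding one for 16. *Ube2s* shares 183 bases with the far more abundant *Rpl28* (847 and 755 CPM), *Ccna2* shares 510 with *Exosc9* (12.7 and 13.2 CPM), and *Ube2c* shares 592 with *Tnnc2*, which had 0 CPM in both groups. *Ccne2*, called higher, shares 609 with *Ints8* (18.7 and 19.3 CPM). *Pkmyt1* and *Cdc20*, also called higher, share 319 with *Paqr4* (14.6 and 13.8 CPM) and 53 with *Elovl1* (174 and 154 CPM). *Ccnd1* shares 1100 with *LTO1* (18.5 and 16.5 CPM). Reads of such pairs may not be told apart. The pseudogene *Ccnb2-ps* had a mean of 0.746 CPM in wild type, against 0.4998 CPM in the *Scd2-m/-m* group, and *Ccnb1-ps* had no count.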

How the data were processed

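Libraries of BMDMs (3 wild-type, 3 *Scd2-m/-m*) were poly(A)-selected and sequenced on an Illumina NovaSeq. STAR was used by the authors for alignment to GRCm38 (Ensembl primary assembly), and the deposited values are raw whole-number counts of each gene. How reads were counted, and whether by strand, was not given in the sources used here, and 60.9% to 64.9% of the counts between 1 and 20 are even, so that 1 count may not stand for 1 fragment. A fit on halved counts was therefore among the alternatives. The authors' own table of fold changes and p-values was not used.

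After removal of 276 repeated entries, 40481 genes remained. Genes were filtered with filterByExpr, scaled by TMM and tested with edgeR 4.0.16 in R 4.3.3 (robust glmQLFit and glmQLFTest on genotype), with Benjamini-Hochberg adjustment over all 14778 genes tested. Totals per library were 46285176 to 57629638, and scaling factors 0.979 to 1.02. CPM used scaled library sizes. Alternatives were RLE and upper-quartile factors, DESeq2 1.42.0, limma-voom (limma 3.58.1) with and without quality weights, filters of at least 1 count in any library or 10 in every library, halved counts, a replicate block and each library left out. Scripts were tested on simulated counts. D-cyclin shares were compared by exact permutation. Coordinates and exon lengths came from GENCODE vM21, promoters from RefSeq.

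The members and lists were chosen with earlier results of these data known. Values for every library are given for members called with an absolute log2 fold change above 1, D cyclins, CDKs, CIP/KIP and INK4 inhibitors, pocket proteins and E2F factors. Each list of other genes contributes the called genes of smallest p, at most 3, of which 1 is not reported here.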

Additional observations from a re-analysis of the deposited data

How the results depend on the processing

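Of the 32 regulators called, 25 kept the call in each of the 15 alternatives that gave a value and none changed direction, while 7 (*Ccng2*, *Cdk4*, *Fzr1*, *Fbxo5*, *Ccne2*, *Mdm2*, *Cdkn2d*) lost it in at least 1. Upper-quartile factors left 0 regulators called lower, since *Fzr1* lost its call. Voom with quality weights called 4507 genes and 2 regulators lower, adding *E2f5*, and also *Ccnd3* and *Cdkn2a* as higher. It reversed the sign of *Ccnd1* (−0.059), *Cdk2* (−0.064) and *Lin54* (−0.056), none of them called. *Scd2* passed the threshold under voom (log2 fold change −0.62) and voom with quality weights (−0.82). The causes were not tested. With an absolute log2 fold change above 2 also required, 98 genes in either direction, 6 regulators higher and 0 lower were called. The filter of 10 counts in every library left out *Cdc25c*. Deviations from the group mean had correlations of 0.053, −0.020 and 0.040 across genes between same-numbered libraries of the groups. With 3 libraries in a group, such values do not settle whether the numbers pair the libraries. The replicate block called 2974 genes, against 2585 in the main fit, with 30 regulators higher and 1 lower, *Fbxo5* being lost. With 1 library left out, 1440 (without *Scd2-m/-m* replicate 2, and 1490 without wild-type replicate 2) to 2567 genes, 26 to 29 regulators higher and 0 to 1 lower were called, the median log2 fold change was 0.77 to 0.87 for G1/S and 1.28 to 1.60 for G2/M regulators, and that of *Scd2* was −0.83 to −0.48. Signs changed for *Ccnd1* (−0.063 to 0.13), *Cdk2* (−0.025 to 0.074), *Rb1* (−0.026 to 0.086), *E2f1* (−0.030 to 0.085), *E2f3* (−0.022 to 0.032), *Lin9* (−0.057 to 0.11), *Lin54* (−0.045 to 0.15), *Trp53* (−0.0018 to 0.11) and the share of *Ccnd3* (−0.573 to 3.40 points), none of them called. Counts as low as those of *Cdc25c* in wild type limit how precisely a fold change is known.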
